A study of Drosophila melanogaster with 6 samples.

Results

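The genes described here encode ATP-dependent chromatin remodellers other than Domino, with the Polycomb group gene ph-p set beside them. They were the 7 genes Iswi, Acf, Chd1, Mi-2, kis, brm and ph-p, chosen by symbol among the 3326 genes that the authors' deposited table listed with an adjusted p below 0.05. Presence in that table was part of the choice, so their ratios describe them and no test is drawn from them. Acf is not itself an ATPase but the large regulatory partner of one, and ph-p is not a remodeller.

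RNA was sequenced from live, GFP-positive cells sorted out of brains of Drosophila melanogaster larvae at the wandering stage, reared at 25C. The dom knockdown larvae came from mothers with UAS::Dcr-2, insc::Gal4 and UAS::CD8-GFP and from w1118; UAS::dom-RNAi fathers, and the wild type larvae from the same mothers and w1118 fathers. There were 6 libraries, 3 of dom knockdown and 3 of wild type. Both genotypes thus carried Gal4 driven from insc, whose driver works in neuroblasts, the stem cells of the fly brain, together with Dicer-2, which strengthens RNA interference, and a membrane-bound GFP that lingers in the progeny of neuroblasts. The hairpin acted wherever the driver did, and the sorted fraction mixed stem cells with their younger offspring. Whether the 3 sorts of a genotype used larvae of separate crosses is not in the labels, so the authors' errors may measure technical spread. The table held 1 comparison and no values per library, so neither the level in each library nor the depth of a library is known, and whether the genotypes overlapped for a gene was not examined.

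Nucleosome remodellers use ATP to slide, evict or exchange nucleosomes, and their motor subunits share the helicase-like fold of yeast Snf2. ISWI enzymes space nucleosomes evenly, CHD enzymes carry chromodomains and act in transcription elongation or in repression, and SWI/SNF enzymes open chromatin at promoters and enhancers. In fly neuroblast lineages the Brahma complex restricts the return of intermediate progenitors to a stem cell state, while Polycomb group proteins such as Polyhomeotic keep silenced genes silent. Domino, the target of the hairpin, is the motor of another class, which exchanges histone H2A variants.

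The target itself, dom, had a log2 ratio of knockdown over control of -0.58 (SE 0.11, 0.671 times the wild type level) in the authors' deposited table. Its sign was read from the column header, in which the control stands first, and every sign was reversed so that a positive ratio means higher in the knockdown. The value of dom also guided that reading, so it is no separate check of the sample labels.

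All 6 remodeller genes were lower in the dom knockdown and ph-p was higher. The decreases ran from brm, at 0.820 times the wild type level, to Acf, at 0.633 times, in the authors' deposited table. The median log2 ratio over the 6 remodeller genes was -0.48, near the -0.46 over the 1680 lower listed genes. Over the 7 genes the median was -0.45. Over all 3326 listed genes it was -0.20, which mixes lower and higher genes and is no typical ratio. Of the 11859 genes behind the authors' adjustment, 28.0% were listed, 14.2% as lower and 13.9% as higher. Since the members had to be listed, their 7 of 7 cannot be read against these shares.

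**Figure D1:**
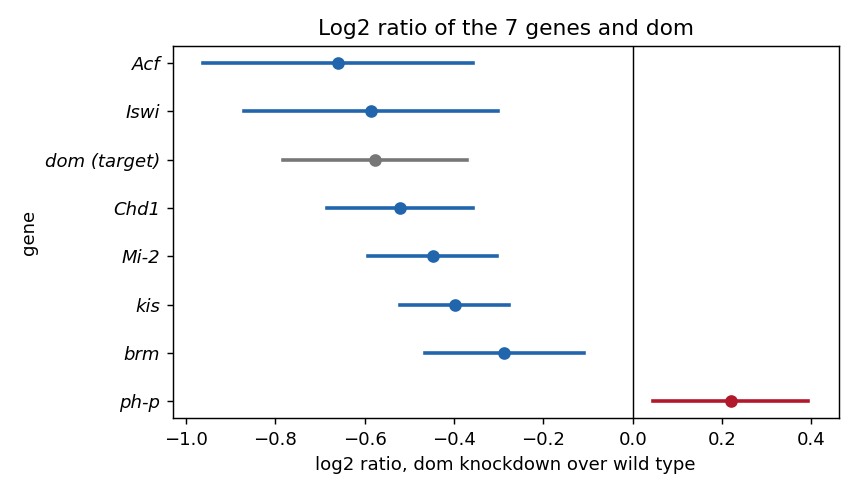
Log2 ratio of dom knockdown over wild type (x axis) for the 7 genes and for the target dom, in grey, with lines for the 95% limits from the authors' standard error. The 6 remodeller genes lie between -0.66 and -0.29, on the same side as dom at -0.58, and ph-p lies at 0.22.

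The 2 genes of the ISWI class had the lowest ratios. Acf (FBgn0027620, dm6 3R:31793981-31799799, plus strand, protein coding) encodes the large subunit that directs the ISWI motor in the ACF and CHRAC complexes. Its mean normalized count over all libraries was 13525 in the authors' deposited table, which with its ratio implies 10489 in the dom knockdown and 16561 in the wild type. The log2 ratio was -0.66 (SE 0.15, 95% limits -0.96 to -0.36, DESeq2 adjusted p 1.91e-04, all from the authors' deposited table). Iswi (FBgn0011604, dm6 2R:12636671-12640628, plus strand, protein coding) encodes the motor itself, shared by ACF, CHRAC, NURF and ToRC. Its mean normalized count of 24827 in the authors' deposited table implies 19849 in the dom knockdown and 29805 in the wild type. Its log2 ratio was -0.59 (SE 0.14, 95% limits -0.87 to -0.30, DESeq2 adjusted p 4.43e-04, all from the authors' deposited table). The limits of the partner genes overlapped, and their standard errors were the widest of the 7 genes. Among listed genes of 10000 or more mean normalized counts, 81.9% had a smaller standard error than Iswi and 86.2% a smaller one than Acf.

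The 3 CHD genes followed, with ratios closer to the control level and narrower errors. Chd1 (FBgn0250786, dm6 2L:2979562-2987723, minus strand, protein coding) encodes a chromodomain motor that assembles nucleosomes and helps deposit histone variant H3.3. Its mean normalized count of 15021 in the authors' deposited table implies 12342 in the dom knockdown and 17699 in the wild type. Its log2 ratio was -0.52 (SE 0.08, 95% limits -0.68 to -0.36, DESeq2 adjusted p 1.15e-08, all from the authors' deposited table).

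Mi-2 (FBgn0262519, dm6 3L:19882051-19910215, minus strand, protein coding) encodes the motor of the NuRD and dMec repressor complexes. Its mean normalized count of 49261 in the authors' deposited table implies 41684 in the dom knockdown and 56838 in the wild type, at a log2 ratio of -0.45 (SE 0.07, 95% limits -0.59 to -0.30, DESeq2 adjusted p 3.33e-08). The trithorax group gene kis (FBgn0266557, dm6 2L:210735-250823, minus strand, protein coding) encodes Kismet, related to human CHD7 and CHD8. With a mean normalized count of 126177 in the authors' deposited table it was the most abundant of the 7 genes, with an implied 108856 in the dom knockdown and 143498 in the wild type. Its log2 ratio was -0.40 (SE 0.06, 95% limits -0.52 to -0.28, DESeq2 adjusted p 4.97e-09, all from the authors' deposited table). That adjusted p was the smallest of the 7 although 4 of the remodeller genes had lower ratios, because the standard error of kis was the third smallest of all 3326 listed genes.

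The SWI/SNF motor gene brm (FBgn0000212, dm6 3L:15970082-15982869, minus strand, protein coding), which encodes Brahma, had the ratio nearest to the control level of the 6 remodeller genes. Its mean normalized count of 35437 in the authors' deposited table implies 31924 in the dom knockdown and 38950 in the wild type. Its log2 ratio was -0.29 (SE 0.09, 95% limits -0.46 to -0.11, DESeq2 adjusted p 0.00803, all from the authors' deposited table). The 95% limits of the 6 remodeller genes all held the range from -0.46 to -0.36, and differences between their ratios were not tested.

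The contrast gene ph-p (FBgn0004861, dm6 X:2126210-2138371, minus strand, protein coding) encodes Polyhomeotic, a core subunit of the Polycomb repressive complex PRC1. Its mean normalized count of 30903 in the authors' deposited table implies 33249 in the dom knockdown and 28557 in the wild type. It was 1.16-fold higher in the dom knockdown (log2 0.22, SE 0.09, 95% limits 0.05 to 0.39, DESeq2 adjusted p 0.0470, all from the authors' deposited table). It lay just inside the threshold, and genes just outside it have no ratio here. Of the listed genes that were higher, 98.7% had a larger increase than ph-p. Its tandem duplicate ph-d (dm6 X:2115727-2123286) lies 2924 bp away on the same strand, is near-identical over long stretches and was not listed, so reads may have been split or lost between the copies and the value of ph-p is uncertain. With all log2 ratios shifted down by 0.1, in place of another centring, 6 members were lower and none higher at the threshold. As deposited, 6 were lower and 1 higher. Adjusted p after a shift is an upper bound, since genes not listed have no ratio, so every count after a shift is a minimum.

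Under stricter thresholds 5 or 6 of the remodeller genes were still called and ph-p was not. At an adjusted p below 0.01, which 10.3% of all tested genes passed as lower and 9.36% as higher, 6 members were lower and 0 higher. At an adjusted p below 0.001, passed by 6.98% as lower and 6.45% as higher, 5 were lower, all remodeller genes but brm, and 0 higher. A log2 ratio of at least 0.32 either way, reached by 10.9% as lower and 12.7% as higher, held for the same 5 lower genes and for 0 higher ones. With log2 ratios shifted up by 0.1, 8.95% of tested genes passed as lower and 13.9% as higher, and among the members the same 5 were lower and ph-p higher. Shifted down by 0.1, 14.2% passed as lower and 9.94% as higher. The members were chosen from the listed genes, so these shares are given beside their counts as background.

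**Figure D2:**
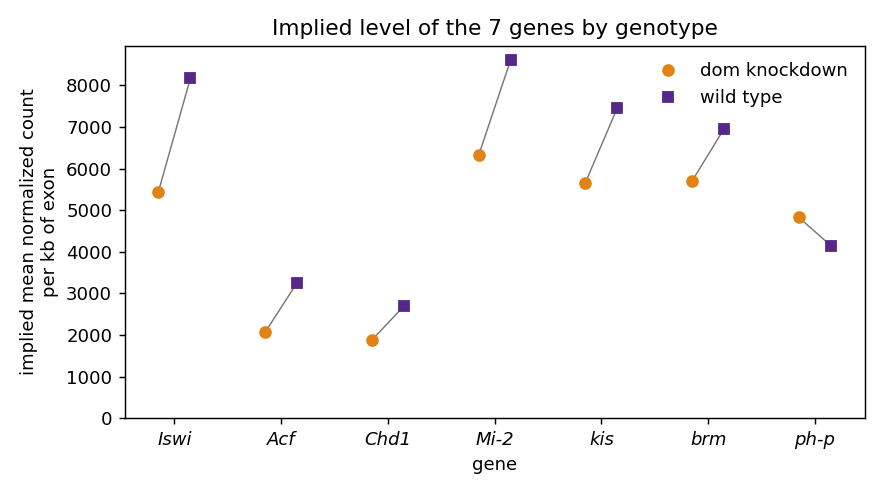
Implied mean normalized count per kb of exon (y axis, from 0) for each of the 7 genes, with circles for the dom knockdown and squares for the wild type, derived from the authors' mean over libraries and their ratio. The knockdown value is below the wild type value for each gene but ph-p, and no spread between libraries can be drawn because the table held none.

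Per kb of exon, the levels of the genes ordered differently from their ratios. The mean normalized count per kb of exon was 7464 for Mi-2, 6807 for Iswi, 6562 for kis and 6331 for brm, then 4487 for ph-p. It was 2663 for Acf and 2288 for Chd1. These levels rest on the authors' means and on exon lengths from 3647 bp for Iswi to 19229 bp for kis. Without values per library, neighbours in this order cannot be told apart or called equal. Per kb of exon, Iswi had an implied 5443 in the dom knockdown and 8172 in the wild type, and its partner Acf an implied 2065 in the dom knockdown and 3261 in the wild type. ISWI motors also serve complexes without Acf.

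Abundant genes with at least 2000 bp of exon were mostly lower in the table as a whole, and the members belong to that class. Among the 487 listed genes whose mean normalized count reached 10000, 65.9% were lower, with a median log2 ratio of -0.36 among the lower ones. Of the 229 of these with at least 5000 bp of exon, a class that holds all members but Iswi, 84.7% were lower. Of the 160 with 2000 to 5000 bp, which include Iswi, 62.5% were lower, and of the 86 with under 2000 bp, 24.4% were. The choice of members, with ph-p as the contrast, fixed their own split, so it is not set against these shares. Within the lower genes of that abundance, 10.9% had a larger decrease than Acf, 16.2% than Iswi, 22.1% than Chd1, 31.8% than Mi-2, 41.4% than kis and 74.5% than brm. By point estimate, the decrease of brm was therefore smaller than that of most abundant lower genes. Those of Acf, Iswi, Chd1, Mi-2 and kis were larger. The median of -0.36 lay inside the 95% limits of each of these 6 genes, so their ratios were not set apart from it. The part of transcript length in the ratios was not tested.

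**Figure D3:**
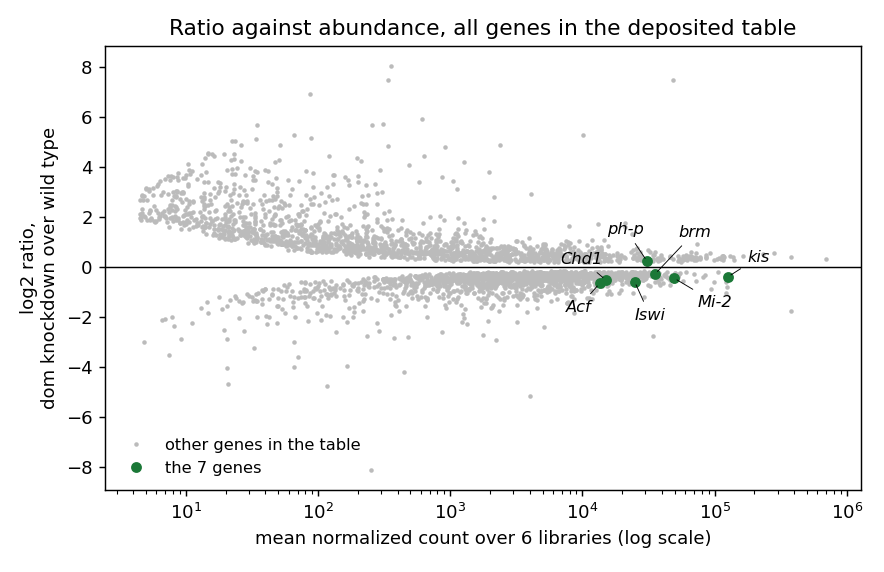
Log2 ratio of dom knockdown over wild type (y axis) against the mean normalized count over all libraries (x axis, log scale) for the 3326 listed genes, with the 7 genes in green. The 7 genes lie among the abundant genes, at means from 13525 to 126177, within the band of small ratios.

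**Figure D4:**
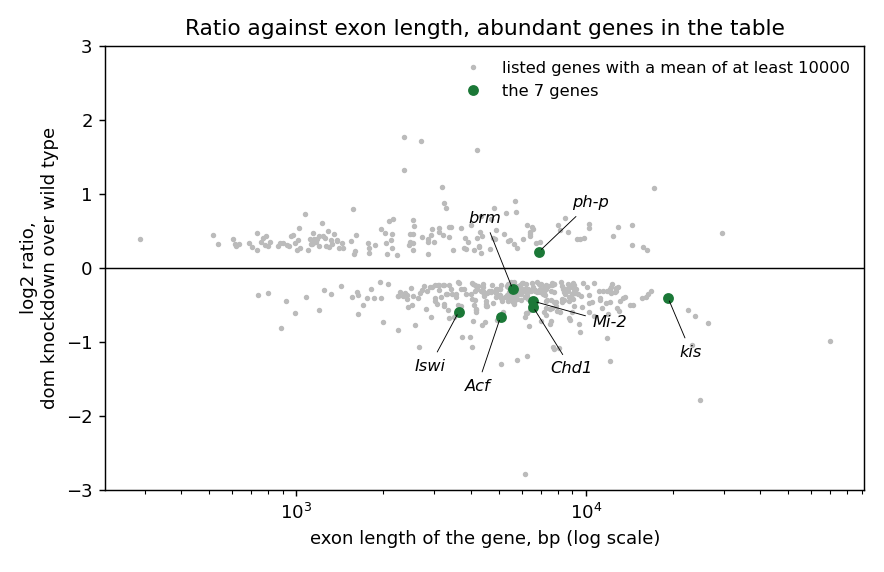
Log2 ratio of dom knockdown over wild type (y axis, cut at -3 and 3 with 2 genes outside) against exon length in bp (x axis, log scale) for 475 listed genes whose mean normalized count reached 10000 and whose length is known, with the 7 genes in green. Long genes lie mostly below 0 and short genes mostly above 0, and the 6 remodeller genes lie below 0.

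The other genes of the remodeller complexes were listed in both directions. Outside the members and dom, 9 of 39 genes in the lists of remodeller motors and complexes were listed (23.1%), 7 lower and 2 higher. With the 6 remodeller members and dom, which were chosen as listed genes or as the target, it was 16 of 46 (34.8%). The share over all 11859 tested genes was 28.0%, between these values, and the lists may hold genes that were never tested, so nothing is read from either share. The median log2 ratio of the 9 was -0.26. Over all listed genes, lower and higher together, it was -0.20, and among the lower listed genes it was -0.46. With log2 ratios shifted up by 0.1 the split was 2 lower and 2 higher, and shifted down by 0.1 it was 7 lower and 0 higher. A gene given here as not listed has no known ratio: it missed the threshold, never entered the test, or stands among the 62 listed IDs without a matched symbol.

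Among the motors, Etl1, the fly counterpart of human SMARCAD1, was listed and lower (log2 -0.29, SE 0.09) in the authors' deposited table. The motors Chd3, the short relative of Mi-2, Ino80, XNP, okr, Marcal1, Hel89B and lds were not listed. All 7 of the 14 Snf2-type motors that were listed were lower, but 5 of them are members and another is dom itself. Without members and dom, 1 of 8 motors was listed (12.5%), against 28.0% of all tested genes listed and 14.2% listed as lower. No gene of the INO80 complex was listed, of 6 whose symbols were matched, beside the same 28.0%. Among those 6 are pont and rept, which the Domino complex also contains.

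In the ISWI complexes, a pair of genes for large scaffold subunits were lower and 1 for a small subunit was higher. E(bx), which encodes the largest NURF subunit, and tou, which encodes an Acf relative in ToRC, were both lower, E(bx) at a log2 ratio of -0.26 (SE 0.10) and tou at -0.25 (SE 0.07), per the authors' deposited table. Chrac-16, which encodes a histone-fold subunit that joins Acf and Iswi in CHRAC, was 1.41-fold higher (log2 0.49, SE 0.17) in the authors' deposited table. Its fold partner Chrac-14 was not listed, nor were Nurf-38 of NURF and CtBP of ToRC. In all, 5 of 9 genes of this list were listed with Iswi and Acf, and 3 of 7 (42.9%) without them, against 28.0% of all tested genes.

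The NuRD list had 3 of 8 genes listed with Mi-2, and 2 of 7 (28.6%) without it, near the 28.0% of all tested genes. MTA1-like, a scaffold that binds the deacetylase, was lower (log2 -0.36, SE 0.08), and CDK2AP1, a small subunit, was 1.21-fold higher (log2 0.27, SE 0.11) in the authors' deposited table. The deacetylase gene HDAC1, MBD-like, simj and MEP-1, the partner of Mi-2 in dMec, were not listed.

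In the SWI/SNF list, 4 of 14 genes were listed (28.6%), near the 28.0% of all tested genes, and 3 of 13 (23.1%) without brm. Without brm, the 3 listed genes were lower, where 14.2% of all tested genes were, and nothing is read from so few genes. With brm, which was chosen as a listed gene, the 4 listed genes were lower. Besides brm these were Bap111, an HMG-domain subunit (log2 -0.34, SE 0.09), e(y)3, found in the PBAP form (log2 -0.32, SE 0.09), and osa, which defines the BAP form (log2 -0.21, SE 0.07), in the authors' deposited table. The core subunit genes mor, Snr1, Bap60 and Bap55 were not listed, nor were polybromo and Bap170 of PBAP.

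Exon length differed among these genes, and its part in their ratios was not tested. Outside the members and dom, the 7 lower genes had a median exon length of 9155 bp, with a range from 2668 bp for Bap111 and 3076 bp for Etl1 to 12968 bp for tou. The 2 higher genes, Chrac-16 and CDK2AP1, had 737 and 1831 bp, and the 30 genes not listed had a median of 2622 bp. The mean normalized counts of Chrac-16 and CDK2AP1 were 3643 and 4255 in the authors' deposited table. In the next abundance class below 10000, which holds both, 57.9% of 387 listed genes with under 2000 bp were lower. With at least 2000 bp, 74.9% of 966 were lower. The short higher genes thus went against the majority of their own class.

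**Figure D5:**
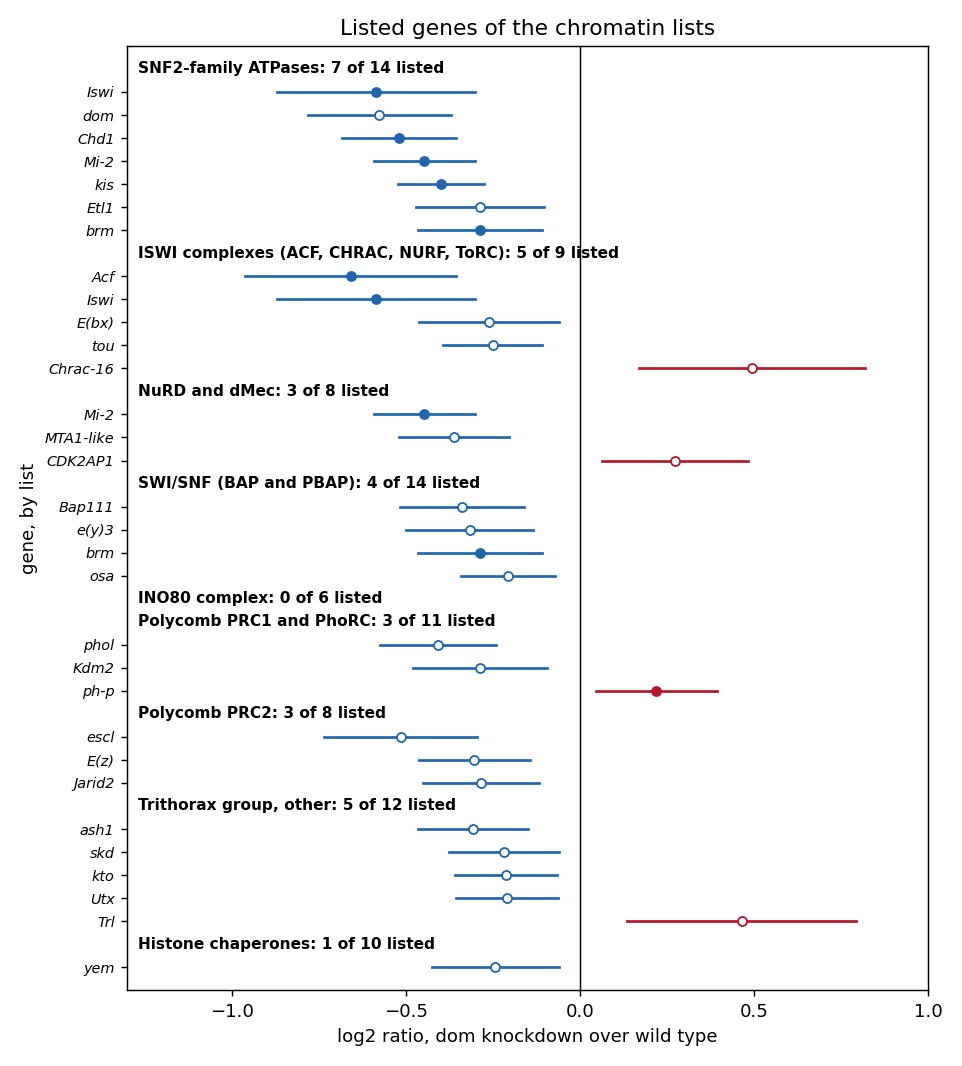
Log2 ratio of dom knockdown over wild type (x axis) with 95% limits from the authors' standard error for each listed gene of 9 chromatin lists (y axis), blue for lower and red for higher. Filled circles are the 7 genes, open circles the others, and each heading gives how many of the matched genes of the list were listed; only Chrac-16, CDK2AP1, ph-p and Trl lie above 0.

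Around ph-p, the other Polycomb genes that were listed were lower. In PRC1 and PhoRC, 3 of 11 genes were listed (27.3%, against 28.0% of all tested genes): ph-p, the DNA-binding factor gene phol (log2 -0.41, SE 0.09) and the demethylase gene Kdm2 (log2 -0.29, SE 0.10) in the authors' deposited table. The genes of the other PRC1 core subunits, Pc, Psc and Sce, were not listed. In PRC2, 3 of 8 were listed (37.5%), all lower: the methyltransferase gene E(z) (log2 -0.30), escl (log2 -0.51) and Jarid2 (log2 -0.29) in the authors' deposited table. Trithorax group genes, which counter Polycomb, had 5 of 12 listed (41.7%). The methyltransferase gene ash1 (log2 -0.31), the demethylase gene Utx (log2 -0.21) and the Mediator genes skd (log2 -0.22) and kto (log2 -0.21) were lower in the authors' deposited table. Trl, which encodes the GAGA factor, was 1.38-fold higher (log2 0.46, SE 0.17) in the authors' deposited table. Of 10 histone chaperone genes, yem, a partner of Hira, was listed and lower (log2 -0.24, SE 0.09) in the authors' deposited table, and Hira itself, asf1 and the FACT genes Ssrp and dre4 were not. Over the 10 chromatin lists, without members and dom, 20 of 76 genes were listed (26.3%), 17 lower and 3 higher, against 28.0% of all tested genes listed, 14.2% lower and 13.9% higher.

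Annotated neighbours and overlapping genes could add reads to a member, since the labels do not say whether strand was kept. Exons of other genes covered 3.27% of the exon bases of Acf, 2.44% of Mi-2 and 2.20% of kis, all on the opposite strand, and none of Iswi, Chd1, brm or ph-p. The gene that overlaps Acf over 166 bp, CG42233, was lower (log2 -1.40, SE 0.12) in the authors' deposited table. Its mean normalized count there was 1107 against 13525 for Acf itself. The antisense transcript asRNA:CR43889, which overlaps Mi-2 over 161 bp, was higher (log2 1.84, SE 0.41) in the authors' deposited table, where its mean normalized count was 33.1 against 49261 for Mi-2 itself.

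Neighbours within 10 kb, a window chosen after the data were seen, were listed in both directions. Over all tested genes, 28.0% were listed, 14.2% as lower and 13.9% as higher. The counts per member are small, and nothing is read from them. They also include annotated entries that are not protein coding and may never have been tested. Around kis, 8 of 16 neighbours were protein coding, and around ph-p 3 of 4 were. Acf had 3 of 6 neighbours listed, all lower: CG42233, faf (log2 -0.46) and Rift (log2 -0.69), in the authors' deposited table. For brm, 4 of 12 neighbours were listed: PolD1 (log2 0.72), CG17029 (log2 1.16), which lies within the span of brm, and CG10516 (log2 0.25) were higher, and Hip14 (log2 -0.25) was lower in the authors' deposited table. For kis, 3 of 16 were listed: Tbc1d15-17, tail to tail with it at a distance of 10 bp (log2 -0.46), and CG17075 (log2 -0.41) were lower, and CG11617 (log2 1.07) was higher in the authors' deposited table. For Mi-2, 3 of 8 were listed: Usp32, tail to tail at 268 bp (log2 -0.85), and lncRNA:CR32218, on the same strand within its span (log2 -0.62), were lower, and asRNA:CR43889 was higher, in the authors' deposited table. Next to Chd1, 1 of 9 genes was listed, CG9641 (log2 -0.50), and the repair motor gene okr at 1871 bp was not, in the authors' deposited table. For Iswi, 3 of 7 neighbours were listed, 1 lower and 2 higher, and for ph-p, 1 of 4 was listed and higher.

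Some markers of neuroblasts, neurons, glia and hemocytes were also listed, beside 28.0% of all tested genes listed, 14.2% lower and 13.9% higher. How far the sort on GFP driven from insc removed other cells, such as hemocytes, was not tested. Of 10 neuroblast markers 5 were listed, 4 of them higher, with nab at a log2 ratio of 0.46 and sna at 0.76, and grh lower at -0.79, in the authors' deposited table. The neuroblast markers dpn, ase, mira, klu and insc were not listed. Of 15 neuron markers 8 were listed, these 8 lower, with log2 ratios from -2.71 for Rbp9 to -0.47 for nrv3 in the authors' deposited table, and elav, nSyb and brp were not listed. Of 12 glia markers 5 were listed, these 5 higher, from 0.56 for repo to 1.94 for alrm, and of 11 hemocyte markers 4 were listed, these 4 lower, from -4.77 for PPO1 to -0.80 for Hml, in the authors' deposited table. The summed level of these lists in each library is not known from the table. The part of cell composition in the ratios of the 7 genes was not tested, and in sorted bulk samples fewer cells of a type and less RNA per cell cannot be told apart.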

How the data were processed

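Libraries were made with a TruSeq RNA kit on TRIzol RNA, per the labels' protocols. The submitters' processing notes name, for the authors' own steps, DESeq2, HTSeq 0.6.1, SAMtools 0.1.19, STAR 2.3.0e and FastQC 0.11.2 with build dm6. The annotation release, the strand setting, filters and shrinkage of ratios were not stated there. Per the file headers, the authors' deposited table held a mean of counts over size factors (a signal), a log2 ratio with the control first, its standard error, a Wald statistic (a score) and p-values before and after adjustment. It was decoded from UTF-7. The number of tests behind the adjustment, 11859, was recovered from ranks, p and adjusted p (within 0.01 in 2883 rows), a step that recovered 12000 in 5 of 5 simulated tables. Read depth and values per library are unknown, so the authors' standard error is the one measure of precision.

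Signs were reversed to give knockdown over control; a header written in the opposite order would swap every direction. Fold is the ratio without logarithm, and limits are 95% normal limits from the authors' standard error. Implied group means treat the mean over libraries as the average of both genotypes and the ratio as their quotient, which holds less well if ratios were shrunken. Symbols matched 3264 of 3326 IDs, so counts in lists are minimums. Ensembl release 115 (BDGP6.54, the dm6 assembly) gave positions, 1-based, and exon lengths. Exon length is that of the merged exons of all transcripts of a gene. Python 3.11.15 with pandas 2.3.3, scipy 1.17.1 and matplotlib 3.10.9 was used. Members and lists were chosen with earlier results of these data known. Named were the members, dom and the listed genes of each chromatin list, up to 8 a list. Of the listed markers and neighbours, only some were named. Alternatives were thresholds of 0.01 and 0.001, a log2 ratio of at least 0.32 either way, and log2 ratios shifted by 0.1 up or down. No new test was fitted, and promoter and protein sequences were not used here.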

Additional observations from a re-analysis of the deposited data

How the results depend on the processing

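No paired analysis was possible because the table gave no level for any single library, and for the same reason no library was left out. The 6 lower members stayed at 6 at an adjusted p below 0.01 and with log2 ratios shifted down by 0.1. They were 5 at an adjusted p below 0.001, at a log2 ratio of at least 0.32 and with ratios shifted up by 0.1. The 1 higher member, ph-p, became 0 at both stricter thresholds, at the minimum of 0.32 and with ratios shifted down. Shifted down, ph-p had a log2 ratio of 0.12 (adjusted p = 0.631, an upper bound from the authors' DESeq2 ratio and standard error). Shifted up, brm had -0.19 (adjusted p = 0.153, likewise). Neither was called, but an upper bound above the threshold cannot show that a gene would fail. Of the other remodeller genes, the 7 lower became 4 at 0.01, 1 at 0.001, 2 at the minimum of 0.32 and 2 with ratios shifted up. The 2 higher became 0 at 0.01, 0 at 0.001, 0 with ratios shifted down and 1 at the minimum of 0.32. Over all genes, 1061 were lower and 1646 higher with ratios shifted up, and 1680 lower and 1179 higher with ratios shifted down, against 1680 and 1646 as deposited. Each alternative can keep no more than the listed genes by its construction, since genes outside the table have no ratio.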
